A study of Rattus norvegicus with 5 samples.

Results

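The 10 genes described here handle heme and iron: Hmox1, Hmox2, Blvra, Blvrb, Alas1, Fth1, Ftl1, Slc40a1, Tfrc and Bach1. They were measured in proximal tubular cells, the reabsorbing epithelium of the early nephron, isolated from kidneys of Sprague-Dawley rats that had type I diabetes. Markers of other cell types also gave strong signals, as given below, so the intensities are not those of proximal tubular cells alone. Cells labelled as of 3 animals had C-peptide, the fragment cut out of proinsulin, for 2 h, and cells labelled as of 2 animals had none. Whether treated and untreated cells with the same animal number came from the same rat is not known. Animals of both groups were diabetic. The sources used here do not give how diabetes was induced, the age of the rats or the dose of C-peptide. Each of these 5 samples was read on 1 Affymetrix whole-transcript array of 29215 probe sets. A gene was read by a probe set that the platform annotation pairs with that symbol alone, the brightest where there were several, and all 10 genes were found, out of 14506 genes with such a probe set. The set was chosen by the higher Hmox1 intensity of the C-peptide arrays in this same comparison, with the other genes added for their roles beside Hmox1, so the values of its members in this comparison are a description and carry no p-value.

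Heme oxygenase opens the heme ring and releases iron, carbon monoxide and biliverdin, which biliverdin reductase turns into bilirubin. Freed iron is stored in ferritin or leaves the cell through ferroportin, while transferrin receptor brings iron in. BACH1 is a heme-sensing repressor that sits on antioxidant response elements of Hmox1 and other genes until heme or oxidants displace it and NRF2 takes its place. The proximal tubule meets filtered heme proteins and transferrin, and heme oxygenase 1 is known there as a stress-inducible enzyme.

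Hmox1, for whose rise the set was chosen, stood apart from the other 9 genes. Its normalised intensity, that is after all arrays were brought to the same distribution, was 645 for C-peptide animal 1, 571 for animal 2 and 435 for animal 3, against 194 and 185 for untreated animals 1 and 2. The lowest C-peptide array was 2.25-fold above the higher untreated array. Group means were 551 ± 107 (SD, n = 3) and 189 ± 5.89 (SD, n = 2). On the scale used for all differences below, log2(normalised intensity + 16), the difference of C-peptide minus untreated was 1.45 ± 0.19 (SE), which is 2.73-fold. The deposited intensities, before normalisation, were 475, 641 and 423 with C-peptide and 218 and 196 without, with the groups again apart. The treated arrays varied more than the untreated ones, by 1.48-fold between the highest and the lowest against 1.05-fold.

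Hmox2, the constitutive heme oxygenase, had intensities of 389, 345 and 348 with C-peptide and 315 and 314 without. The C-peptide arrays lay above the untreated arrays, but by a log2 difference of only 0.19 ± 0.14 (SE), and in the deposited intensities the groups overlapped.

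Biliverdin reductase A, Blvra, had intensities of 274, 281 and 393 with C-peptide and 214 and 283 without. A single treated array, that of animal 3, was above both untreated arrays, and the log2 difference was 0.32 ± 0.21 (SE). Biliverdin reductase B, Blvrb, was dim and spread widely with treatment, at 53.8, 72.3 and 104 against 81.0 and 73.6. Its log2 difference was -0.05 ± 0.23 (SE), so the step after heme oxygenase showed no separation of the groups in either reductase.

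Alas1, the housekeeping enzyme that starts heme synthesis and is repressed by heme, had intensities of 606, 659.6 and 673 with C-peptide and 547 and 502 without. All treated arrays were higher, by a log2 difference of 0.29 ± 0.14 (SE), while the deposited intensities overlapped.

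The ferritin subunits, which form the iron storage shell, were bright and showed no separation. Fth1, the heavy chain with ferroxidase activity, had intensities of 7186, 7788 and 7675 with C-peptide and 7788 and 8293 without. Ftl1, the light chain, had 7094, 7442 and 7282 against 7758 and 7122. Their log2 differences were -0.09 ± 0.14 and -0.03 ± 0.14 (SE), and both turned positive (0.10 and 0.19) when arrays were centred on their medians instead. The equal values of 7788 arise because quantile normalisation gives probe sets of the same rank the same value. Ftl1 is read by 6 probe sets, with differences from -0.06 to 0.16, and Fth1 by 2, at -0.09 and -0.13. The dimmer Fth1 probe set lay below on every treated array and 1 of the dimmer Ftl1 probe sets above. Ferritin genes have many near-identical copies in the genome, so which copy a probe set reads is uncertain. Ferritin output is also controlled at translation, which these arrays do not measure.

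**Figure D1:**
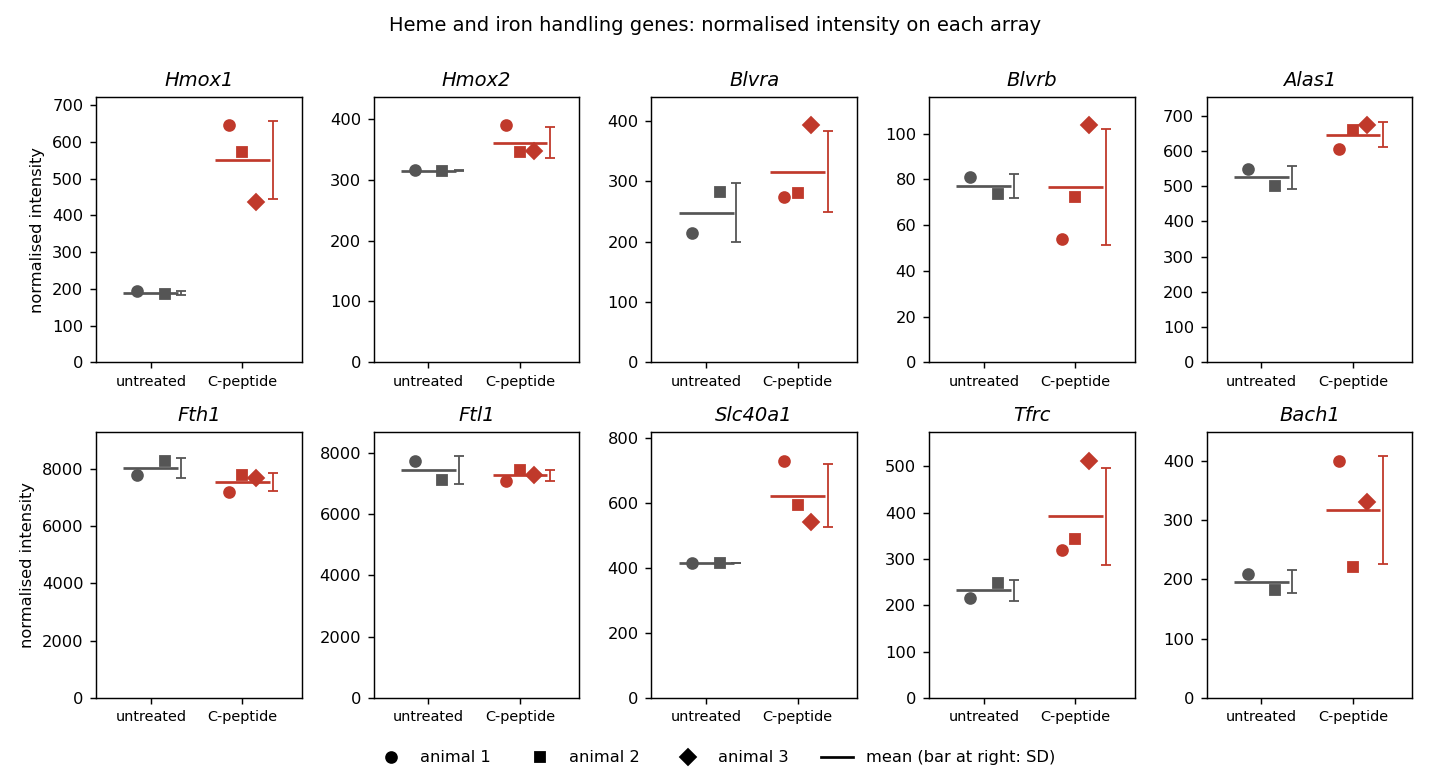
Normalised intensity (linear, from 0) of each of the 10 genes on each array, with untreated arrays in grey and C-peptide arrays in red. Symbols mark the animal number within a group, horizontal lines the group mean and vertical bars the SD (n = 2 and n = 3). Hmox1 lies between 435 and 645 with C-peptide against 185 and 194 without, while the ferritin genes overlap.

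Among the remaining genes, Slc40a1, Tfrc and Bach1 were higher on all 3 C-peptide arrays than on both untreated arrays, in amounts well under that of Hmox1. Slc40a1, or ferroportin, the iron exporter, had intensities of 731, 595 and 542 with C-peptide and 416 on both untreated arrays, whose deposited values were 458 and 449. Its log2 difference was 0.55 ± 0.17 (SE), or 1.47-fold.

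Tfrc, the transferrin receptor for iron uptake, had intensities of 320, 343 and 513 with C-peptide and 217 and 248 without. The log2 difference was 0.69 ± 0.22 (SE), or 1.61-fold, and the array of C-peptide animal 3 was far above the other treated arrays. The deposited intensities overlapped, at 225, 390 and 508 against 243 and 266. An importer and an exporter of iron therefore lay in the same direction.

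Bach1, the repressor of Hmox1, had intensities of 400, 220.1 and 330.1 with C-peptide and 209 and 182 without. The log2 difference was 0.62 ± 0.24 (SE), or 1.53-fold. Its groups came close, since the array of C-peptide animal 2 was only 1.05-fold above that of untreated animal 1. BACH1 is controlled largely as a protein, through heme binding, export and degradation, and none of that is measured here.

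Across the 10 genes, 6 had all C-peptide arrays above both untreated arrays and 0 had them below. Of all probe sets, 16.1% were above and 13.8% below in this way. At an unadjusted p under 0.05 in limma, 5.06% of all probe sets were higher and 6.3% lower. At adjusted p 0.05 in limma none of the 10 passed, and none of all 29215 probe sets did (0% called, with 3317 at an unadjusted p under 0.05). The log2 difference was above 0 in 7 of the 10 genes and in 53.6% of all probe sets. The median log2 difference was 0.31 over the 10 genes and 0.02 over all probe sets. Nothing is read from these counts, because the genes were put together on this comparison.

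The upstream regions of Slc40a1, Tfrc and Bach1, the genes that lay above the untreated arrays beside Hmox1 by at least 1.47-fold, are shown with the motifs found in them. RefSeq promoter windows (GRCr8) of 250 bases before to 50 after a listed start were at hand for 7 of the 10 genes, in 8 windows, as Hmox2 has 2 listed starts. No window was at hand for Hmox1, Fth1 or Ftl1, so these genes were not searched for any motif. Both strands were searched for the core of the antioxidant response element (TGACNNNGC), the AP-1 and MAF recognition core (TGANTCA), the E-box (CACGTG) and the GC box (GGGCGG). The first 2 can overlap in a run that holds both. Capitals mark a match on either strand, and the last base printed is the one before the start.
Slc40a1 upstream region: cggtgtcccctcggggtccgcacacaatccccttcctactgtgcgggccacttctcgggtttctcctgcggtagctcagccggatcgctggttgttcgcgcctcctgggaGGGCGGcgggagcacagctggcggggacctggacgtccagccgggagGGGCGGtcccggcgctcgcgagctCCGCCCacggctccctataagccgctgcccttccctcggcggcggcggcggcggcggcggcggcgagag
Tfrc upstream region: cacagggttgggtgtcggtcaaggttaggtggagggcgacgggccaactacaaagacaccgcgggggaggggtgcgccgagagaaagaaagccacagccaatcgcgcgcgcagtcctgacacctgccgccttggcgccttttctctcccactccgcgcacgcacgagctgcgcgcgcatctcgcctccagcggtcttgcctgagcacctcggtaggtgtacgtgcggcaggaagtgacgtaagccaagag
Bach1 upstream region: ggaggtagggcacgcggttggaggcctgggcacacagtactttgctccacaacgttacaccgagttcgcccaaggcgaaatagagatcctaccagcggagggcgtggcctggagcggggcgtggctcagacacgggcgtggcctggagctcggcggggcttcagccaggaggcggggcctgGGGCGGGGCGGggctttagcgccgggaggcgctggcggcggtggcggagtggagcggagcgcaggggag

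These stretches lie at chr9:55543461-55543710, minus strand for Slc40a1, chr11:81690319-81690568, minus strand for Tfrc and chr11:40425471-40425720, plus strand for Bach1. All capitals in them are GC boxes, 3 in Slc40a1 and 2 in Bach1, which share 1 base, and none is in the Tfrc stretch, where 30.5% of all 33469 upstream stretches of 250 bases hold at least 1. Past the start, within the 300 bases searched, Tfrc has a GC box beginning at base 12 and Bach1 a further box at base 6, and 33.1% of the full windows hold the motif. None of the 3 genes had TGACNNNGC in its window, and 12.1% of all windows did. TGANTCA, which 7.33% of windows hold, was found in Bach1, beginning at base 30 counted from the start as base 1.

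TGACNNNGC was present in Blvra and in 1 of the 2 windows of Hmox2, on the opposite strand to that printed, beginning 95 bases before the start in Hmox2 and 145 in Blvra. These matches and the one in Bach1 are shown with their surroundings, because BACH1 and NRF2 bind sites of this kind.
Hmox2 motif: gtcttggaagGCAGTGTCAgcttggccag
Blvra motif: ttaaatatttGCTGGGTCAccgaagtgga
Bach1 motif: cgcggagggagTGAGTCAcctgaccgccg

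The stretches are at chr10:11337689-11337717, minus strand for Hmox2, chr3:134802755-134802783, plus strand for Blvra and chr11:40425739-40425767, plus strand for Bach1. CACGTG was in none of the 8 windows and in 6.42% of all windows. A match describes the letters only, and enhancers farther away were not searched.

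Marker genes of the cells are given beside these values. All 10 proximal tubule markers had log2 differences above 0, from 0.30 to 0.97 with a median of 0.56, and 6 of them lay above on every treated array, as did 16.1% of all probe sets. Cubn, the endocytic receptor cubilin, was at 0.75. Their summed intensity was 22178 to 28681 with C-peptide and 16018 to 19504 without. Endothelial markers had a median of -1.16, with 9 of 10 below on every treated array, as were 13.8% of all probe sets, and sums of 8335 to 13101 against 20096 to 23707. Tek, the angiopoietin receptor, was at -1.26 and had the smallest p of that list. On both untreated arrays the endothelial sum was above the proximal tubule sum, though intensities of different probe sets do not give cell proportions. Fewer cells of a type and less RNA per cell cannot be told apart in such bulk samples.

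Macrophages recycle iron and are known to express Hmox1 and Slc40a1 strongly. The 10 macrophage markers had a median of -0.53, and 7 of them were below on every treated array, beside 13.8% of all probe sets. Of the other 3, Csf1r was at -0.43, Marco at -0.04 and Cd163 at 0.12, all named after their values were seen, and the part of such cells in the values of Hmox1 and Slc40a1 was not tested. Their sums were 1893 to 2617 against 3061 to 3173. Adgre1, the F4/80 antigen, was at -0.63 ± 0.15 (SE). The 8 red blood cell markers, of which several serve hemoglobin, had a median of -0.08 (0.15 without C-peptide animal 3), and in all of them the groups overlapped. Rhag, which had the smallest p among them, had a log2 difference of 0.12. Their sums were 2878 to 6869 against 4198 to 5541. The 6 thick limb and distal tubule markers had a median of 0.16, with Slc12a3 at 0.69 ± 0.23 (SE), and sums of 8129 to 14117 against 9518 to 10633. No marker was at 0 on any array, but some were dim, with a lowest value of 4.94 among the red blood cell markers. Rhag, Cd163 and Marco had untreated means of 23.9, 37.0 and 58.6, beside a median of 82.1 over all probe sets. Overlap of the groups in such dim markers says little. None of the markers in these lists passed adjusted p 0.05 in limma.

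Set against the proximal tubule markers, Hmox1 was the single gene of the 10 that stayed above on every treated array. For this the mean log2 value of the 10 markers was taken off each array and the untreated mean was set to 0. Hmox1 was then at 1.08 for C-peptide animal 1, 1.18 for animal 2 and 0.41 for animal 3, and at -0.10 and 0.10 on the untreated arrays, a difference of 0.89. Since Hmox1 was chosen for its rise, and this scale was added after the data were seen, its place here is a description only. The same calculation placed Slc40a1 at 0.18, 0.16 and -0.36 against -0.13 and 0.13. Bach1 was at 0.37, -0.18 and -0.02 against -0.04 and 0.04.

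Tfrc was at -0.17, 0.20 and 0.36 against -0.22 and 0.22 on that scale. The differences of these 3 genes were -0.01 for Slc40a1, 0.13 for Tfrc and 0.06 for Bach1, with overlap in each, so their higher signal was of the size seen for proximal tubule markers on the same arrays. Hmox2, Blvrb, Fth1 and Ftl1 were below on every treated array on this scale, with differences of -0.37, -0.60, -0.65 and -0.59. Blvra and Alas1 overlapped. The markers' mean difference of 0.56 is taken off every gene here, so a gene without a difference lies below 0. These lower places therefore do not show a fall in intensity, and the share of all probe sets on this scale was not counted. How much the markers' shift contributes to any of these values was not tested.

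**Figure D2:**
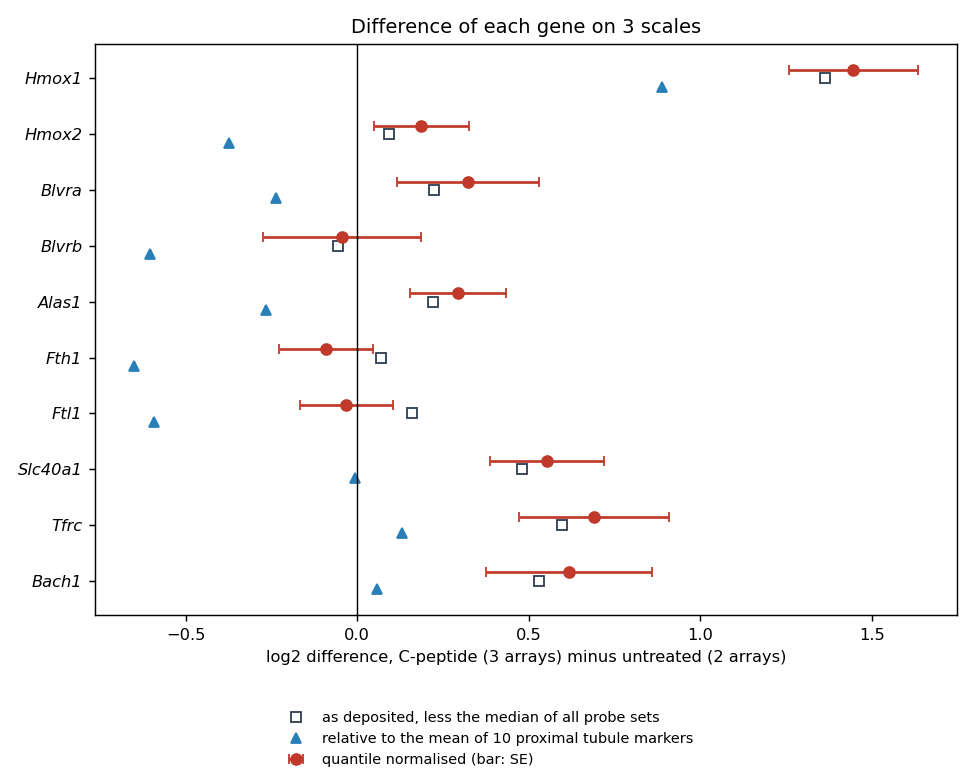
Log2 difference, C-peptide minus untreated, of each gene after quantile normalisation (red, bar SE), in the deposited values less the median of all probe sets (open squares) and relative to 10 proximal tubule markers (blue triangles). Hmox1 is at 1.45, 1.36 and 0.89, while Slc40a1, Tfrc and Bach1 are between 0.55 and 0.69 after normalisation and between -0.01 and 0.13 on the marker scale.

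**Figure D3:**
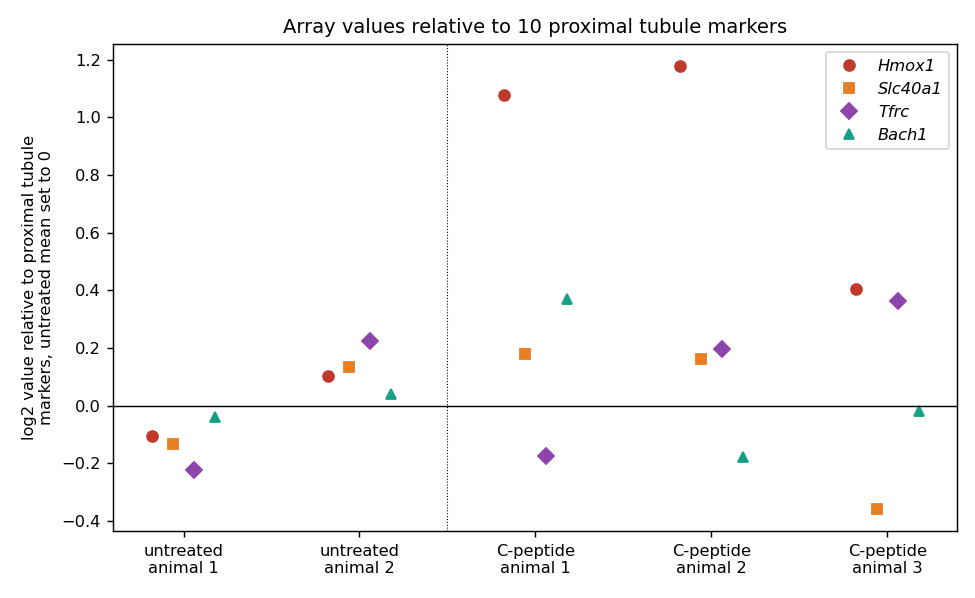
Log2 value of Hmox1, Slc40a1, Tfrc and Bach1 on each array, relative to the mean of 10 proximal tubule markers and to the untreated mean. Hmox1 is at 0.41 to 1.18 on the C-peptide arrays, and the other 3 genes spread on both sides of 0.

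The wider heme and iron pathways were followed in 7 lists of 77 genes, of which 70 were measured by a probe set of that symbol alone. None passed adjusted p 0.05 in limma, while at an unadjusted p under 0.05 there were 13 higher and 4 lower, beside 5.06% and 6.3% of all probe sets. Among the 70, 28 lay above and 8 below on every treated array, beside 16.1% and 13.8% of all probe sets, and the median log2 difference was 0.16, against 0.02. These 70 genes are read by their brightest probe sets, while all probe sets include 13582 without a symbol. The shares here and below are therefore not like for like, and nothing is read from them.

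In heme synthesis, 6 of 7 genes had differences above 0, with a median of 0.28. Ppox, protoporphyrinogen oxidase, was at 0.39 ± 0.15 (SE), Alad, the enzyme after Alas1, at 0.31 ± 0.15, and Fech, ferrochelatase, which inserts the iron, at 0.32 ± 0.16. Only Ppox was under an unadjusted p of 0.05, and its adjusted p in limma was 0.409.

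In heme transport and binding, the 12 genes had a median of 0.13, with 8 above 0. Abcg2, an exporter that carries porphyrins among other cargo, was at 0.61 ± 0.20 (SE), and Hebp1, a heme-binding protein, at -0.45 ± 0.16. Flvcr2, of the heme exporter family, was at 0.30 ± 0.14. Hpx and Hp, which carry free heme and hemoglobin in plasma, were at 0.12 and 0.24, names picked after their values were seen. Both were dim, with untreated means of 17.2 and 62.9.

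In iron uptake and export, the 14 genes had a median of 0.18 and went in both directions. Heph, a ferroxidase that works with ferroportin, had the lowest difference, at -0.84 ± 0.25 (SE), from 100.1 ± 11.9 (SD, n = 2) to 50.4 ± 18.5 (SD, n = 3). Slc39a14, an iron and zinc importer, was at 0.56 ± 0.17 and Slc11a2, the iron importer DMT1, at 0.51 ± 0.20. Heph thus lay opposite to Slc40a1, with adjusted p = 0.289 in limma.

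In iron sensing, the 11 genes had a median of 0.16. Aco1, which as iron regulatory protein 1 binds iron-responsive elements of ferritin and Tfrc mRNA, was at 0.57 ± 0.18 (SE). Bmp6, the growth factor through which liver endothelium reports iron load, was at -0.70 ± 0.17, beside the median of -1.16 for endothelial markers, whose part in this was not tested. Neo1, which encodes neogenin, was at 0.42 ± 0.15. In mitochondrial iron handling, the median was 0.10 over 10 genes, with the mitochondrial ferritin Ftmt at 0.47 ± 0.15, Glrx5 at 0.27 ± 0.14 and Hscb at -0.36 ± 0.21.

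The list of NRF2, its inhibitor and factors that pair or share sites with BACH1 had a median of 0.05 over 7 genes. This median had no stable side of 0, being -0.17 in the deposited intensities, -0.18 when C-peptide animal 1 was left out, 0.17 when it was animal 2, and -0.02 when it was untreated animal 2. Bach2, the lymphoid relative of Bach1, was at -0.46 ± 0.14 (SE), but was dim, with means of 42.5 with C-peptide and 64.6 without. Maff, a small MAF partner, was at 0.54 ± 0.23, and Nfe2l1 at -0.35 ± 0.16. Nfe2l2, which encodes NRF2, was at 0.15 and its inhibitor Keap1 at -0.25, both named after their values were seen.

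Antioxidant and NADPH-supplying genes that NRF2 is known to drive had the highest median of the 7 lists, 0.51 over 9 genes, with 6 above on every treated array (16.1% of all probe sets) and 5 higher at an unadjusted p under 0.05 (5.06% of all probe sets). Osgin1, an oxidative stress growth inhibitor, went from 172 ± 30.4 (SD, n = 2) to 387 ± 85.5 (SD, n = 3), a log2 difference of 1.09 ± 0.21 (SE). Me1, malic enzyme, was at 0.73 ± 0.14 and Gclc, of glutathione synthesis, at 0.60 ± 0.18. In limma their adjusted p values were 0.141, 0.138 and 0.295. Members of the same list did not all go along. Nqo1 and Srxn1 were at 0.08 and 0.18 with overlapping groups and Slc7a11 at -0.13, also named after their values were seen. These 3 were dim, with untreated means of 44.9, 53.2 and 31.5 beside a median of 82.1 over all probe sets. Adding 16 before log2 shrinks differences at such intensities. The median of the proximal tubule markers, 0.56, stands beside that of this list, and the part of these markers in it was not tested.

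**Figure D4:**
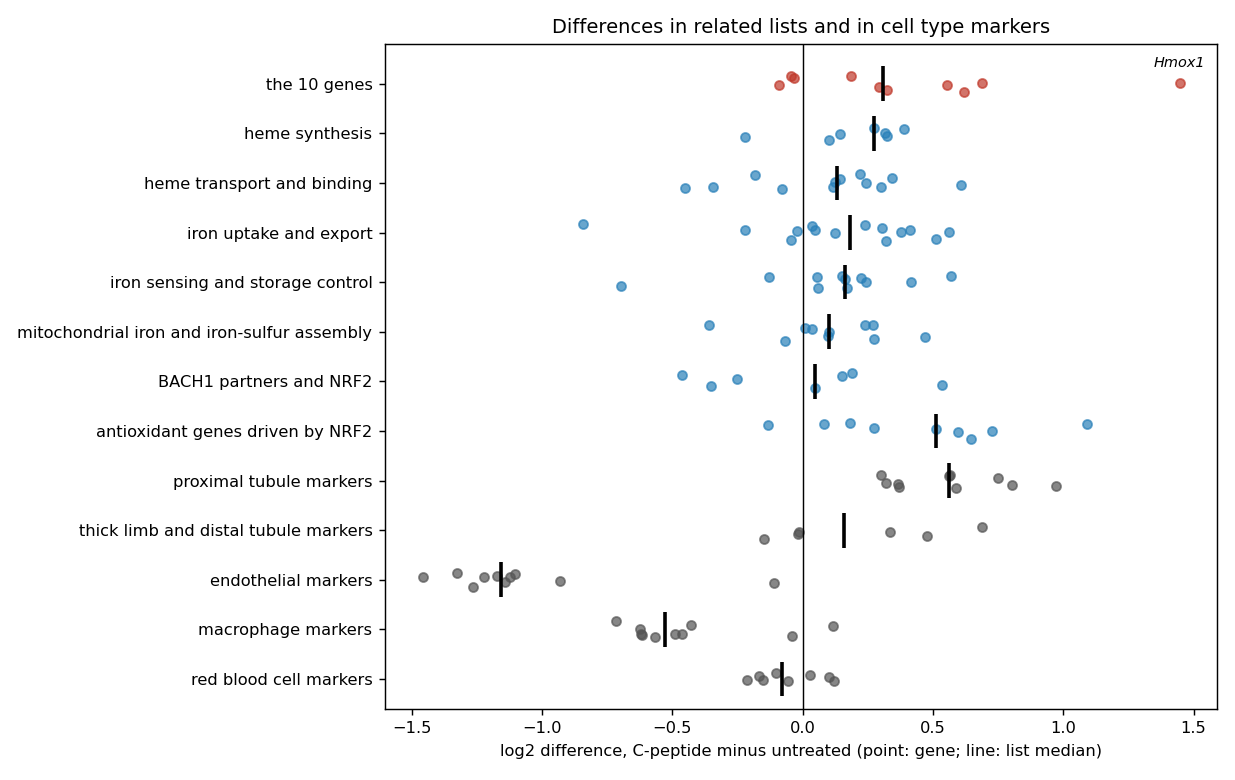
Log2 difference, C-peptide minus untreated, of each measured gene (points) in the 10 genes, the 7 related lists and the 5 marker lists, with list medians as vertical lines. Hmox1, for whose rise the set was chosen, is at 1.45, beyond every other point on the higher side. Endothelial and macrophage markers have medians of -1.16 and -0.53.

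The genes whose profile over the 5 arrays was closest to that of Hmox1 were found by the root mean square distance between centred log2 values, among 8564 other genes above the median intensity. They were Slc7a13 (0.23), Dhrs7l1 (0.23), Cish (0.29), Slc7a12 (0.30) and Ppic (0.30), where Hmox1 itself lies 0.73 from a flat profile. Slc7a13, which carries amino acids in the late proximal tubule, had intensities of 2051, 2064 and 2014 with C-peptide and 799.6 and 950.0 without. Cish, a feedback inhibitor of cytokine signalling, had 588, 336 and 376 against 218 and 161. The same contrast sets these profiles, so the likeness is a description.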

How the data were processed

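Total RNA was amplified, labelled and hybridised to a whole-transcript array, per the labels' protocols. The deposited values are intensities on a linear scale summarised with PLIER in Affymetrix Expression Console 1.1, as named in the submitters' processing notes. How the authors corrected background or scaled arrays is not stated in the labels. Array medians ran from 60.1 to 95.9, so the deposited intensities had not been brought to 1 distribution. They were quantile normalised between arrays (limma 3.58.1, R 4.3.3), and 16 was added before taking log2. All 29215 probe sets were fitted with lmFit and eBayes with group as the only term, two-sided, with Benjamini-Hochberg adjustment. Names of the 15310 single-symbol probe sets came from the platform annotation, updated through RefSeq (GRCr8). The normalisation and fit were run on simulated data to check that they recovered set differences. The counts called and the other steps were not checked in this way.

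The members, lists and tests were chosen with earlier results of these data known. Named are all members, up to 3 genes per related list and 1 per marker list by smallest p, and the 5 genes most like Hmox1. Other names are marked as chosen after their values were seen. Each array carries an animal number within its group, and the labels do not say whether equal numbers mean 1 animal. The number of arrays limits precision. Alternatives were the deposited intensities, median centring, pseudocounts of 1 and 64, a filter on dim probe sets, another variance prior, a replicate block, averaged probe sets of a gene, and each array left out. The scale relative to proximal tubule markers was added after seeing the data.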

Additional observations from a re-analysis of the deposited data

How the results depend on the processing

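The Hmox1 difference of 1.45 kept its direction under 13 alternative settings. It ran from 1.23 in the deposited intensities to 1.60 with the animal number as a replicate block. When each array was left out in turn, it ran from 1.32 to 1.59. C-peptide animal 3 has no untreated array of its number, so the block takes it out of the difference. That setting therefore nearly repeats leaving this array out and is not a separate check. For a gene read by 1 probe set, the filter, the other variance prior and the mean of probe sets cannot change the difference. Leaving out an array could hardly reverse Hmox1 either, as its groups did not overlap, so its kept direction is no support. Relative to the proximal tubule markers the Hmox1 difference was 0.89. The differences of Blvra, Alas1, Slc40a1, Tfrc and Bach1 also kept their direction under these 13 settings, but not their size. In the deposited intensities, where the median of all probe sets was -0.13, Blvra and Alas1 were at 0.09, Slc40a1 at 0.35, Bach1 at 0.40 and Hmox2 at -0.04. Blvra was at 0.16 without C-peptide animal 3, and 0.13 and 0.51 without untreated animals 1 and 2. Blvrb, Fth1 and Ftl1 changed sign under 2, 1 and 4 of their settings. Counts at adjusted p 0.05 in limma depended on the setting. Over all probe sets the count was 52 in the deposited intensities, 29 after median centring, 1 and 118 at pseudocounts of 1 and 64, 393 among probe sets above the median intensity, where fewer are tested, and 207 with a trended and robust variance prior. Among the 10 genes the count supports nothing, since the gene it holds, Hmox1, chose the set. It was 1 after median centring, at a pseudocount of 64, with the filter, with that prior and with the mean of probe sets, and 0 in the deposited intensities, at a pseudocount of 1, with the block and with any single array left out. Osgin1 and Me1 made it 2 in the related lists with the filter and with the mean of probe sets. Marker genes passed in numbers of 1 in the deposited intensities, 5 with the other prior and 7 with the filter or the mean of probe sets. Equal animal numbers did not deviate together (correlations of -0.02 and 0.01 for animals 1 and 2), which is a weak check, because deviations of 2 untreated arrays mirror each other. Whether the numbers pair the samples is not known, and with the replicate block, as without it, 0 probe sets passed. With 2 untreated arrays, the untreated spread rests on a single difference.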
